A study of Mus musculus with 9 samples.

Results

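The genes described are ligands and receptors of the epidermal growth factor (EGF) family together with Errfi1, an inhibitor of the receptors, in the steroid-making mouse line MA-10, which derives from a Leydig cell tumour. The list held 9 genes, chosen with earlier results of these data known. They were the ligands Areg, Ereg, Btc, Hbegf and Tgfa, the receptors Egfr, Erbb2 and Erbb3, and Errfi1. A member was measured by a probe carrying its symbol and no other, and 8 of the 9 had 1 such probe among the 19938 genes of the table. Areg was not analysed here because no probe carried its symbol. A further probe shared by Erbb2 and Sympk was left out by the same rule.

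Total RNA was profiled on 9 Affymetrix whole-transcript arrays, 3 per group. Control cells received the DMSO vehicle, another group 10 µM forskolin, and the last group 10 µM forskolin with 1 mM AICAR, each for 1.5 h in DMEM-F12 without serum, after growth in horse serum. The titles of the control samples mention no treatment, whereas their treatment field names DMSO. All samples came from 1 cell line, the labels name no genetic change, and AICAR was given only on top of forskolin in the groups used here. Forskolin stimulates adenylyl cyclase, which makes cAMP, the intracellular messenger of luteinizing hormone in Leydig cells. Inside the cell AICAR becomes ZMP, which acts like AMP and switches on AMPK, a kinase that senses low energy. The series set out to learn how AICAR alters the transcriptome of these cells, and the comparisons below ask how the EGF family genes stood in it.

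EGF family ligands are made as membrane-bound precursors that proteases cut free to act on the same or neighbouring cells. They bind Egfr and its relatives, which pair, phosphorylate each other and start the Ras and ERK cascade. In the ovary, and in Leydig cells including this line, luteinizing hormone and cAMP are known to act in part through such ligands and Egfr, and EGF itself can stimulate steroid production. Errfi1 (also called Mig-6 or RALT) is an adaptor that binds the active kinase domain of the receptors and blocks it, and its own gene is switched on by growth factors, so that it closes a feedback loop.

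Errfi1 was the member that changed. Its transcript was 1.49-fold lower with AICAR and forskolin than with forskolin, and 1.6-fold lower than in control. No member passed the test after forskolin, and the 7 ligand and receptor genes passed it in none of the 3 comparisons. Values are log2 summaries (RMA), so a difference of 1 is a 2-fold change. Differences were tested with limma's moderated test over all genes, two-sided, and a gene was called at an adjusted p under 0.05 (Benjamini-Hochberg). The labels do not state whether the replicates are different cultures, and the spread behind the p-values may therefore be technical.

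The arrays had close medians, between 7.14 and 7.19, and no 2 arrays were identical. The interquartile range of the log2 values was narrower in AICAR replicates 2 and 3 (3.35 and 3.34) than in the other arrays (3.42 to 3.48). Star, which encodes the carrier that brings cholesterol to the first step of steroid synthesis, had log2 values of 8.57, 8.61 and 8.56 in control, 10.55, 10.33 and 10.52 with forskolin, and 8.47, 8.38 and 8.4 with AICAR and forskolin. The Leydig genes Cyp11a1, Cyp17a1, Nr5a1, Scarb1 and Hsd3b6 were above 10 in every array, and Star, Hsd3b1 and Fdx1 were not. Hsd3b1 read 8.08 to 9.22, whereas the endothelial marker Cdh5 read 11.92 to 12, so a high level alone did not mark Leydig cells here. Insl3 and Lhcgr, both defining Leydig markers, had no probe of their own. Of 8 measured Leydig markers 3 rose with forskolin (Star, Scarb1 and Fdx1), and 5 fell when AICAR was added (Star, Scarb1, Fdx1, Hsd3b1 and Hsd3b6). The shares of all genes called in these comparisons, in either direction, were 0.692% and 5.10%. Hsd3b1 and Hsd3b6 each lost the call when any 1 of 7 arrays was left out (adjusted p up to 0.12), and kept it only without forskolin replicate 2 or AICAR replicate 1, so that 3 of the 5 held throughout. The largest axis of within-group variation set AICAR replicates 1 and 3 furthest apart, with scores of -0.6 and 0.56. The mean log2 value of 8 peritubular and fibroblast markers was 6.82 to 6.9 in control arrays, 6.84 to 6.92 with forskolin and 6.93 to 7.1 with AICAR, and none of the 8 passed the test. Of 7 Sertoli markers Sox9 fell with AICAR (log2 difference -0.46, SE 0.05, adjusted p = 0.0013), and of 8 macrophage markers Cd68 fell (-0.39, SE 0.06, adjusted p = 0.0068). Neither list had another call in that comparison, and their median differences went the other way, at 0.11 (Sertoli) and 0.08 (macrophage). Against control Sox9 and Cd68 were again called lower, and the macrophage marker C1qa higher (0.23, SE 0.05, limma adjusted p = 0.027). The C1qa call was lost without any 1 of 5 arrays, and that of Cd68 without control replicate 2 or 3. No marker of germ cells or endothelium was called in any comparison. The part of these in the results below was not tested.

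**Figure D1:**
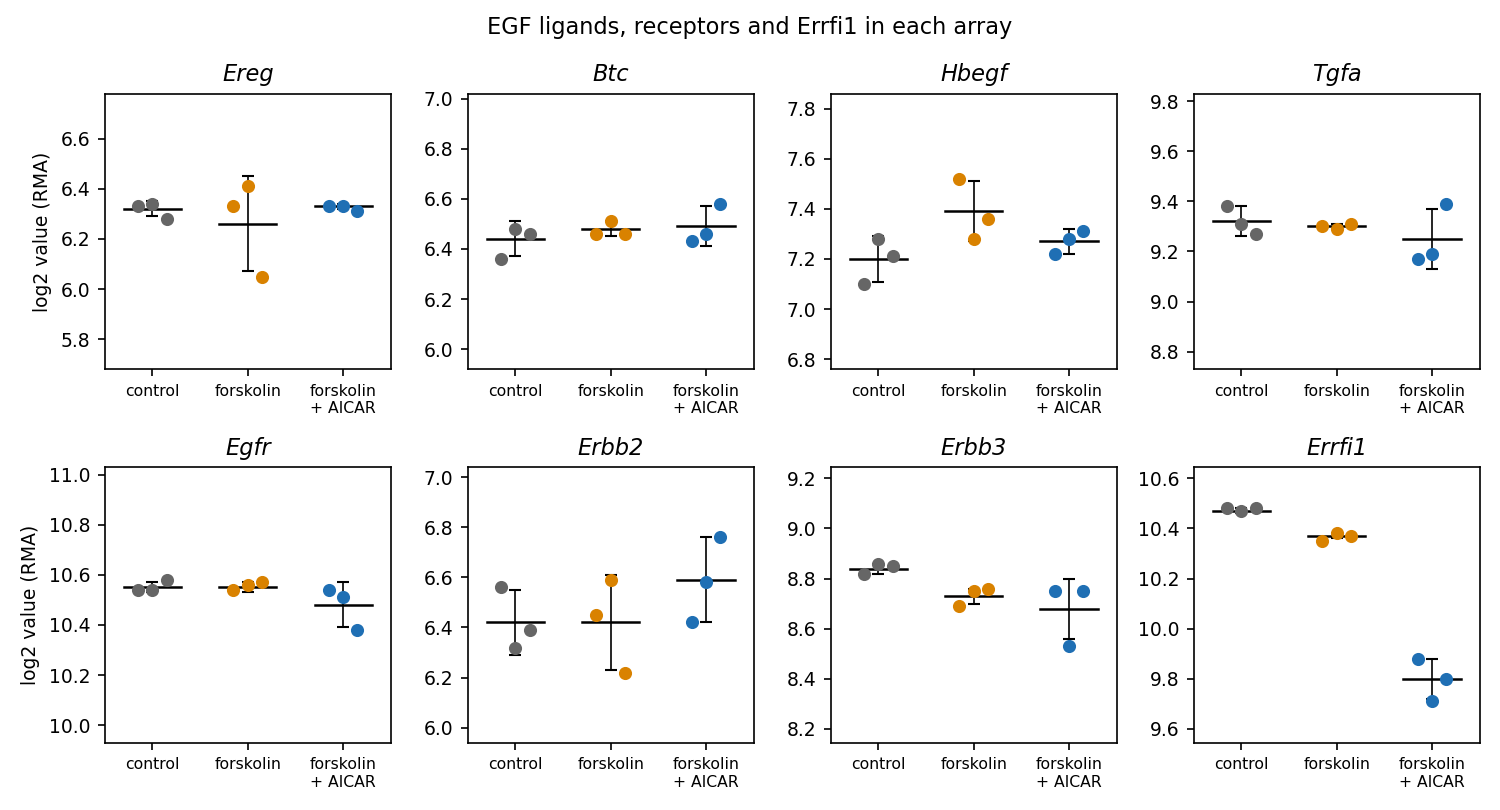
Log2 values (RMA) of the 8 measured genes in each of the 9 arrays, with 1 panel per gene, points for arrays (replicates 1 to 3 from left to right), horizontal bars for group means and error bars for the SD (n = 3). Every panel spans the same log2 range, and Errfi1 shows the 3 AICAR arrays between 9.71 and 9.88, below the 6 other arrays, whereas the groups of the other genes lie close together.

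Among the ligands, Hbegf, the heparin-binding ligand, moved furthest after forskolin but did not pass the test. Its log2 values were 7.1, 7.28 and 7.21 in control, 7.52, 7.28 and 7.36 with forskolin and 7.22, 7.28 and 7.31 with AICAR and forskolin. The lowest forskolin array lay just above the highest control array, by less than the rounding of these values, and the AICAR arrays lay within the range of both other groups together. The log2 difference between forskolin and control was 0.19 (SE 0.07, 95% interval 0.04 to 0.34), with an unadjusted p of 0.018 and an adjusted p = 0.47 in limma. With AICAR the difference from forskolin was -0.12 (SE 0.07, 95% interval -0.27 to 0.03, limma adjusted p = 0.3), which was not called.

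Tgfa, which encodes transforming growth factor alpha, a ligand of Egfr, was steady. The 9 arrays spanned 9.17 to 9.39, both ends of which were AICAR arrays, and the 3 forskolin arrays read 9.3, 9.29 and 9.31. Forskolin differed from control by -0.02 (95% interval -0.15 to 0.12) and AICAR from forskolin by -0.05 (95% interval -0.19 to 0.08), so that the groups overlapped in all 3 comparisons.

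Ereg and Btc encode epiregulin and betacellulin, ligands that activate Egfr and also Erbb4. Epiregulin is, with amphiregulin, the ligand that luteinizing hormone induces in ovarian granulosa cells. For Ereg the log2 values were 6.33, 6.34 and 6.28 in control, 6.33, 6.41 and 6.05 with forskolin, and 6.33, 6.33 and 6.31 with AICAR and forskolin. Its widest spread was therefore within the forskolin group, where replicate 3 lay lowest of all arrays. The forskolin difference was -0.05 (SE 0.08, 95% interval -0.23 to 0.13, limma adjusted p = 0.96). Btc stayed between 6.36 and 6.58 in all 9 arrays, with differences of 0.04 after forskolin (95% interval -0.07 to 0.16) and 0.01 with AICAR against forskolin (95% interval -0.1 to 0.12). The deposited values carry no detection call, so whether these genes were expressed above background was not tested.

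Egfr, the founding receptor of the family, read 10.54, 10.54 and 10.58 in control and 10.54, 10.56 and 10.57 with forskolin, so these groups overlapped. With AICAR and forskolin it read 10.54, 10.51 and 10.38, where the lowest value was that of replicate 3. The difference of AICAR from forskolin was -0.08 (SE 0.05, 95% interval -0.18 to 0.02, limma adjusted p = 0.31), and that of forskolin from control was 0 to 2 decimals (95% interval -0.1 to 0.11).

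Erbb2 encodes a receptor that binds no known ligand and serves as the partner of the others. Its log2 values were 6.56, 6.32 and 6.39 in control, 6.45, 6.59 and 6.22 with forskolin and 6.42, 6.58 and 6.76 with AICAR and forskolin. These overlapped throughout, and its within-group SD of 0.13 to 0.19 gave the widest intervals of the 8 genes (AICAR against forskolin 0.17, SE 0.11, 95% interval -0.08 to 0.41, limma adjusted p = 0.37).

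Erbb3 encodes a receptor with little kinase activity of its own, which relays signals to phosphatidylinositol 3-kinase. It read 8.82, 8.86 and 8.85 in control, 8.69, 8.75 and 8.76 with forskolin and 8.75, 8.53 and 8.75 with AICAR and forskolin. All 6 forskolin-treated arrays were below all 3 control arrays, and AICAR and forskolin arrays overlapped. Forskolin with AICAR differed from control by -0.17 (SE 0.06, 95% interval -0.3 to -0.04, limma adjusted p = 0.098), and forskolin alone by -0.11 (SE 0.06, limma adjusted p = 0.78), neither of which passed. The first of these was called without AICAR replicate 1 (-0.2, adjusted p = 0.044) and with array weights (-0.27, adjusted p = 0.0039). Array weights also called the difference between AICAR and forskolin, at -0.16 (adjusted p = 0.024). The weights of AICAR replicates 1 to 3 were 0.354, 2.84 and 0.318. The weighted AICAR mean therefore rested mostly on replicate 2, whose Erbb3 value of 8.53 was the lowest of all arrays.

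Errfi1, the receptor inhibitor, had log2 values of 10.48, 10.47 and 10.48 in control, 10.35, 10.38 and 10.37 with forskolin, and 9.88, 9.71 and 9.8 with AICAR and forskolin. The 3 groups did not overlap at any point, and their order was control, then forskolin, then AICAR with forskolin. AICAR added to forskolin lowered it from a mean of 10.37 ± 0.01 to 9.8 ± 0.08 (SD, n = 3), a log2 difference of -0.57 (SE 0.04, 95% interval -0.67 to -0.47, limma adjusted p = 2.1e-04). On the linear scale the level dropped by 32.7%. Against control, whose mean was 10.47 ± 0.01 (SD, n = 3), the fall was 1.6-fold (log2 difference -0.68, SE 0.04, 95% interval -0.78 to -0.58, limma adjusted p = 7.5e-05). The step from control to forskolin was -0.11 (SE 0.04), with an unadjusted p of 0.042 and an adjusted p = 0.65 in limma, and was not called. Among 822 genes called lower with AICAR against forskolin, Errfi1 ranked 136 by size of the fall, and among 1133 called lower against control it ranked 71. Both falls were called without any 1 of the 9 arrays, with adjusted p of at most 0.0021 and 0.0011.

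**Figure D2:**
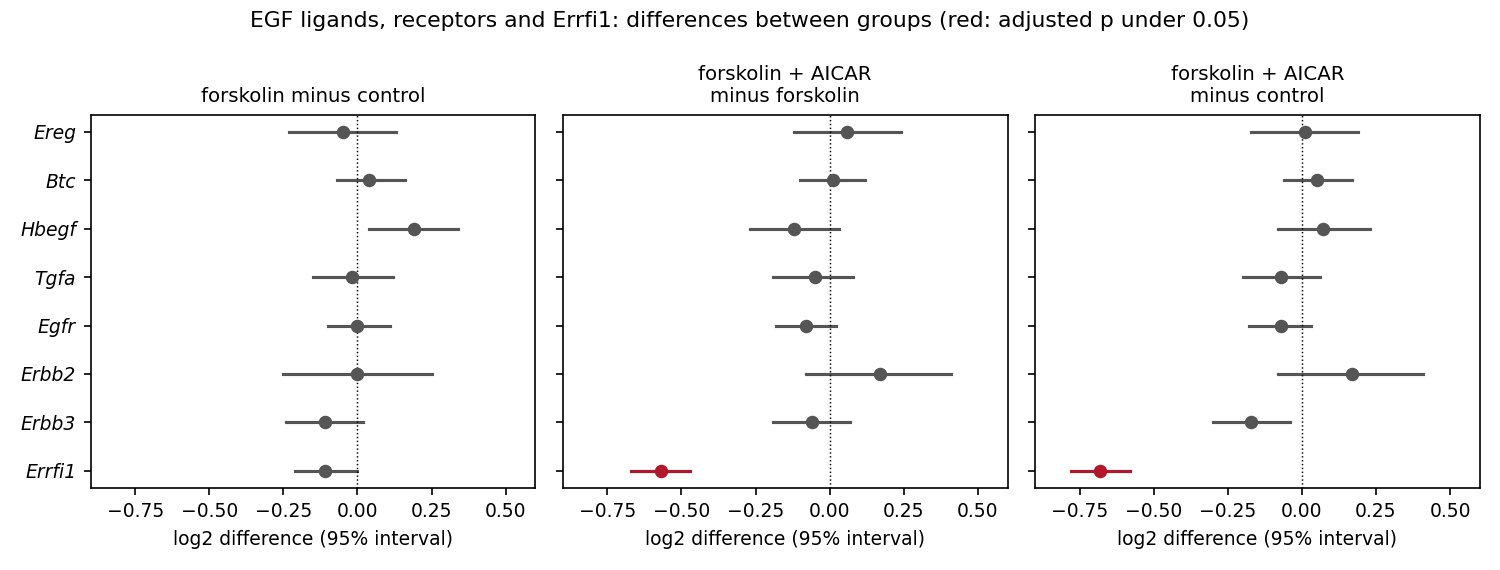
Log2 differences between groups for the 8 genes (points) with 95% intervals from limma (lines), 1 panel per comparison and red where the adjusted p was under 0.05. Errfi1 is red in both AICAR panels, at -0.57 and -0.68, and the intervals of the ligands and receptors lie within 0.41 of 0.

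These results were read against all genes. After forskolin 0 of 8 members were called, where limma called 0.692% of the 19938 genes, and 2 members (Hbegf and Errfi1) had an unadjusted p under 0.05, as did 7.27% of genes. In that comparison the groups did not overlap for 3 members (Hbegf, Erbb3 and Errfi1), and for 14.0% of all genes. With AICAR against forskolin 1 of 8 was called, and it was lower, against 5.10% of genes called and 4.12% called lower. The groups did not overlap for that 1 member, and for 23.6% of genes. With AICAR and forskolin against control, 1 of 8 was called, again lower, against 8.72% of genes called and 5.68% called lower, and 2 members did not overlap (Erbb3 and Errfi1), against 29.5% of genes. The median log2 difference of the 8 was -0.01, -0.05 and -0.03 in the 3 comparisons, where that of all genes was 0, 0.02 and 0.02. With at most 1 call among 8 genes, nothing is read from the share of the family that was called. The comparisons share samples and are not independent of each other.

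A shift equal for all genes of an array cancels within it. The value of Errfi1 was therefore also taken relative to each other member in the same array, with the control mean set to 0. Relative to Egfr, the receptor it inhibits, Errfi1 stood at -0.11, -0.1 and -0.12 with forskolin, and at -0.58, -0.73 and -0.5 with AICAR and forskolin. The AICAR arrays were below all others here too. Against the 7 other members in turn, the AICAR arrays lay below all 6 remaining arrays in each case, and the mean shift from forskolin to AICAR ranged from -0.45 relative to Hbegf to -0.74 relative to Erbb2. The transcript of the inhibitor was thus lower with AICAR relative to that of every measured ligand and receptor of the list, without a test of these ratios. They reuse the values that gave the call of Errfi1, so they describe it and add no support. A shift that varies with brightness would not cancel, and control means were 10.47 for Errfi1 and 6.42 for Erbb2. The part of such a shift was not tested.

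RefSeq promoter windows of GRCm38.p6 (250 bases before and 50 after a start) were given for 5 of the 8 measured members, with 2 windows for Errfi1, and for Areg. They were searched on both strands for the cAMP response element TGACGTCA, the shorter TGACG (which every full element contains), the AP-1 motif TGANTCA, the Nr4a element AAAGGTCA and the Egr motif GCGNGGGCG. The full cAMP element was in 1 of the 2 windows of Errfi1, at bases -51 to -44 from the start, and in the window of Areg, at -61 to -54. It occurs in 1.79% of the 32851 windows of the table. The shorter letters without the full element were found for Btc and Erbb2, and no motif of the 5 for Tgfa and Egfr. Of all windows 20.8% hold the shorter letters, a share that includes windows with the full element. The Errfi1 sequences are shown because this gene carried the called change. They are the 250 bases before each start on the plus strand, chr4:150853546-150853795 for start 1 and chr4:150854820-150855069 for start 2, 5′ to 3′, with the cAMP element in capitals.
Errfi1 start 1: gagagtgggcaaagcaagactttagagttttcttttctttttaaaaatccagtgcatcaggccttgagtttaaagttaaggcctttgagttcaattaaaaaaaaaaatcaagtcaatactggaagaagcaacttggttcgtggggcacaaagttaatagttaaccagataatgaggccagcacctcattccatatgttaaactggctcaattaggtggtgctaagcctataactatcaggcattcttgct
Errfi1 start 2: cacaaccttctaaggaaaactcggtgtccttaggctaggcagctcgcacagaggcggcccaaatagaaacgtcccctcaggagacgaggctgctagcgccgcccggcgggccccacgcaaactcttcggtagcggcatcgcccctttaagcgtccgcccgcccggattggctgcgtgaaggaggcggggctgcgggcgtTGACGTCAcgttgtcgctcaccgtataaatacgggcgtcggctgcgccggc
The windows also differ in base composition, at 38% G and C for start 1 and 64.8% for start 2. These are matches of letters, and neither the use of either start nor the binding of any factor was measured.

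The other genes of the pathway were described from lists. Of 7 further family genes (Egf, Epgn, Nrg1 to Nrg4 and the receptor Erbb4) none was called in any comparison. The smallest p belonged to Epgn, the ligand epigen, after forskolin (0.09, SE 0.05, limma adjusted p = 0.78) and to Erbb4 with AICAR, against forskolin (0.11, SE 0.05, limma adjusted p = 0.2) and against control (0.13, SE 0.05, limma adjusted p = 0.11). Median differences of these 7 were 0.04 after forskolin and -0.01 with AICAR against forskolin. Of 12 genes of ligand shedding and trafficking none was called after forskolin or with AICAR against forskolin, where the protease inhibitor Timp3 had the smallest p (-0.09, SE 0.04, limma adjusted p = 0.2). Rhbdf2, a rhomboid-like protein that escorts the shedding protease Adam17, read 9.02, 9.07 and 9.05 in control, 9.29, 9.21 and 9.23 with forskolin and 9.18, 9.18 and 9.27 with AICAR and forskolin. Both treated groups were above control, with a forskolin difference of 0.2 (SE 0.04, limma adjusted p = 0.09). The difference of AICAR with forskolin from control was 0.16 (SE 0.04, limma adjusted p = 0.042), the only call in that list, and it was lost without any 1 array but AICAR replicate 1 (adjusted p up to 0.12).

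Of 24 measured genes that relay the signal from the receptors, none was called after forskolin, the nearest being Gab1, a docking protein (-0.17, SE 0.04, limma adjusted p = 0.15). With AICAR against forskolin Gab2, its relative, rose (0.19, SE 0.03, limma adjusted p = 0.015), and Ksr1, an ERK cascade scaffold, fell (-0.22, SE 0.03, limma adjusted p = 0.0063), as did the transcription factor Stat3 (-0.24, SE 0.06, limma adjusted p = 0.04). Ksr1 kept its call without any 1 array, Gab2 lost it without forskolin replicate 1 or 3 (adjusted p up to 0.06), and Stat3 kept it only without control replicate 3 or AICAR replicate 1 (up to 0.14 otherwise). The median of the 24 was -0.03, and over all genes 5.10% were called with AICAR against forskolin.

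Errfi1 is a feedback inhibitor, and a list of 27 other genes was drawn up under the heading of receptor and ERK feedback inhibitors. The heading is loose, as not all of the 27 are established feedback inhibitors. After forskolin 2 rose, the ERK phosphatases Dusp5 (0.58, SE 0.05, limma adjusted p = 6.5e-04) and Dusp4 (0.53, SE 0.07, limma adjusted p = 0.0089). Without control replicate 1 or 3 the adjusted p of Dusp4 reached 0.06 and it was not called. Over all genes 0.692% were called after forskolin. With AICAR against forskolin 3 fell and none rose. Over all genes 5.10% were called in that comparison and 4.12% were called lower, so most calls there were falls. Spry3, a Sprouty gene, fell from 9.7 ± 0.05 to 9.03 ± 0.19 (SD, n = 3; log2 difference -0.67, SE 0.08, limma adjusted p = 0.0019), and Dusp5 fell by 0.29 on the log2 scale (SE 0.05, limma adjusted p = 0.011). Lrig2, a membrane protein related to the receptor inhibitor Lrig1, fell by 0.33 on the log2 scale (SE 0.08, limma adjusted p = 0.043). Spry3 kept its call without any 1 array, Dusp5 lost it without forskolin replicate 3 or AICAR replicate 2 (adjusted p up to 0.054), and Lrig2 kept it only without AICAR replicate 1 (up to 0.14 otherwise). The fall of Errfi1 lay between those of Spry3 and Lrig2 in size, and the median of the 27 was -0.07.

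In the list of 24 ERK-responsive early genes, 6 rose and 1 fell after forskolin, led by Fosb (1.15), Klf4 (1.08) and Fos (0.74), all transcription factors. Over all genes 0.692% were called after forskolin and 5.10% with AICAR against forskolin. With AICAR against forskolin 3 rose and 3 fell, led by Fos (1.25, SE 0.09) upward and by Jun (-0.81, SE 0.07) and Klf4 (-0.79, SE 0.09) downward. Errfi1 therefore had the direction of Jun and Klf4, and not that of Fos, although Jun and Klf4 had risen with forskolin and Errfi1 was not called there. Of the early genes called after forskolin, Egr1 was not called without control replicate 1 or 3 or any 1 forskolin array (adjusted p up to 0.12), nor Klf10 without control replicate 2 or 3 or any 1 forskolin array (up to 0.11). With AICAR, Egr1 was not called without any 1 forskolin array or AICAR replicate 3 (adjusted p up to 0.086), and Junb likewise and also without AICAR replicate 2 (up to 0.097). Ier2 was not called without control replicate 1 or 2, forskolin replicate 2 or 3 or AICAR replicate 3 (up to 0.12). Of 10 measured genes of the LH and EGF network of the ovulating follicle, Star rose with forskolin, and Star and Hsd3b1 fell with AICAR. Hsd3b1, an enzyme of steroid synthesis, kept that call only when no array, forskolin replicate 2 or AICAR replicate 1 was left out, with an adjusted p of up to 0.12 otherwise.

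Forskolin with AICAR was also set against control for these lists. Over all genes 8.72% were called in that comparison, and 5.68% of all genes were called lower. Among 24 relay genes Gab2 rose (0.17, SE 0.03), and Ksr1, Pik3r1 (-0.32, SE 0.08), a regulatory subunit of phosphatidylinositol 3-kinase, and Stat5a (-0.14, SE 0.03) fell. Each of these 4 calls ended when 1 of at least 3 single arrays was left out, all 3 controls among them for each (adjusted p up to 0.15). Among the 27 genes of the feedback inhibitor list 4 rose, Socs3, Spry1, Dusp5 and Dusp4 (0.39, SE 0.07), and 2 fell, Spry3 (-0.44, SE 0.08) and Lrig2 (-0.37, SE 0.08). Without control replicate 3, Dusp5 was the only 1 of these 6 still called (its adjusted p was at most 0.048 without any 1 array). Spry3 and Lrig2 were also not called without control replicate 2, nor Lrig2 without AICAR replicate 3 (adjusted p up to 0.079). Socs3 was also not called without control replicate 2 or AICAR replicate 2 or 3, nor Spry1 without control replicate 1, forskolin replicate 1 or 2 or AICAR replicate 2 or 3 (adjusted p up to 0.11 for each). Among 24 early genes 4 rose, led by Fos (1.99, SE 0.09), Fosb (0.97, SE 0.05) and Egr1 (0.90, SE 0.08), and 2 fell, Ier2 and Klf10. Those 3 rises were called without any 1 array. Neither fall was called without control replicate 2 or 3, nor Klf10 without AICAR replicate 2 (adjusted p up to 0.079), and Ier2 was called only without AICAR replicate 1 or 2 among the 9 arrays left out (up to 0.12 otherwise). No gene of the follicle network was called (Pgr, the progesterone receptor, had the smallest p, with a difference of 0.14, SE 0.05, limma adjusted p = 0.081).

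**Figure D3:**
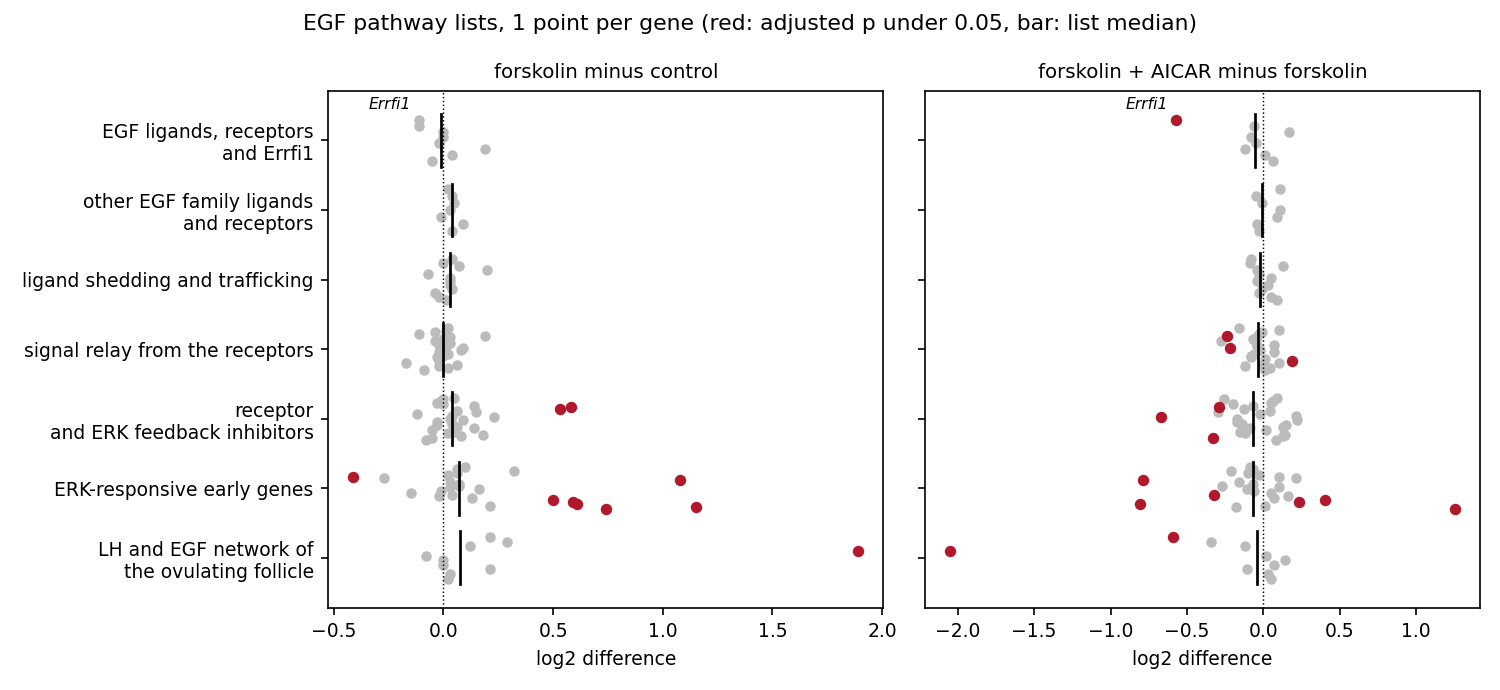
Log2 differences of the genes of 7 lists, 1 point per gene, for forskolin minus control (left) and forskolin with AICAR minus forskolin (right), red where the adjusted p was under 0.05, with a black bar at each list's median. In the right panel Errfi1 is the red point of the top list at -0.57, and Spry3 at -0.67 leads the feedback inhibitor list. The other family, shedding and trafficking lists have no red point there.

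The genes nearest to Errfi1 in pattern were found by the root mean square difference over the 9 arrays after each gene was centred on its control mean, among 13837 named genes with a mean log2 value of at least 6. They were Zfp846 (0.05), Zfp691 (0.06) and Snhg5 (0.06), namely a pair of zinc finger genes and a host gene of small nucleolar RNAs. Zfp846 fell by 0.52 on the log2 scale with AICAR against forskolin (SE 0.06, limma adjusted p = 0.0017), Zfp691 by 0.55 (SE 0.05, limma adjusted p = 5.9e-04) and Snhg5 by 0.52 (SE 0.06, limma adjusted p = 0.0015). After forskolin their differences were -0.15, -0.12 and -0.13, and none was called. These genes were chosen for likeness to Errfi1, so their values are a description.

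**Figure D4:**
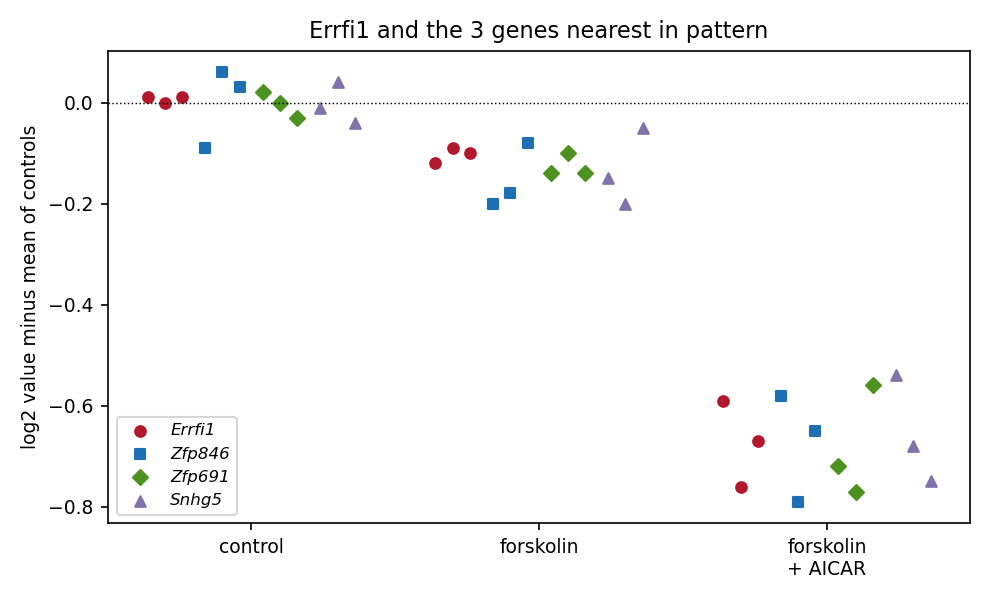
Log2 value minus the mean of the 3 controls in each array for Errfi1 and the 3 genes nearest to it in pattern, by group (replicates 1 to 3 from left to right). All 4 genes lie slightly below 0 with forskolin, and with AICAR and forskolin their means lie at -0.68 (Errfi1), -0.67 (Zfp846), -0.68 (Zfp691) and -0.66 (Snhg5).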

How the data were processed

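The deposited table gave log2 values for 35557 probes (transcript clusters) in 9 arrays. Per the submitters' processing notes these log2 values came from RMA and Partek, with versions and settings not given in the sources used here, and the authors' genome build is not given either. RMA usually corrects background, gives arrays 1 distribution and summarises each cluster's probes, which compresses differences near background. The deposited arrays did not share exactly 1 distribution, with interquartile ranges of 3.34 to 3.48. Probes with 1 gene symbol were kept, with the brightest by mean over 9 arrays for each gene, giving 19938 genes and no filter on dim ones. A single limma 3.58.1 fit (R 4.3.3) held all 9 arrays in 3 groups, with eBayes, two-sided tests and Benjamini-Hochberg adjustment over all genes. It was run on simulated data with independent noise of equal spread in every array. In these data the largest axis held 46% of the within-group variation, and array weights ran from 0.318 to 3.46. That run therefore does not show how the fit performs here. The number of arrays limits the precision.

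Members, lists and tests were chosen with earlier results of these data known. The genes named are all members, up to 3 called genes per list and comparison (or the smallest p), and the 3 nearest in pattern to a called member. Other genes are mentioned to complete counts, and Cyp11a1, Cyp17a1, Nr5a1, Cdh5 and Rhbdf2 after forskolin for context. No replicate block was used. Same-numbered control and forskolin arrays deviated from their group means with correlations across genes of 0.24, 0.01 and 0.33 (replicates 1 to 3), whereas AICAR arrays ran the other way for replicates 1 and 3 (-0.41 to -0.34), so the numbers were not taken to pair the samples. The fit was repeated with a replicate block, with means of at least 5 or 6, after quantile normalization or median centring, with a trended robust prior, on 2 groups, with array weights, with the mean of a gene's probes, without each array and, added after seeing the data, without replicate 3 of every group. Tables used pandas 2.3.3 and numpy 2.4.6 in Python 3.11.15, and figures matplotlib 3.10.9.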

Additional observations from a re-analysis of the deposited data

How the results depend on the processing

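No member was called after forskolin under any of the 19 alternatives. Errfi1 was called under all 19 in both AICAR comparisons, with log2 differences of -0.64 to -0.53 against forskolin (adjusted p up to 0.025) and -0.74 to -0.63 against control (adjusted p up to 0.014). Some of the 19 could not change the values of a member. Each measured member had 1 probe, so taking the mean of a gene's probes left it as it was. The filters on dim genes removed no member. Under these alternatives the adjusted p of a member could move only through the other genes, so they test its call little. With array weights 2 members were called in each AICAR comparison, Erbb3 joining Errfi1. Those weights set AICAR replicate 2 (2.84) far above AICAR replicates 1 (0.354) and 3 (0.318). Without single arrays the count stayed at 1 against forskolin and was 1 to 2 against control (2 without AICAR replicate 1). With a replicate block the fall of Errfi1 had an adjusted p of 0.0022 against forskolin and 0.0012 against control, and the calls of members did not change. Counts over all genes moved more. For forskolin, AICAR against forskolin and AICAR with forskolin against control they were 138, 1017 and 1739, with a replicate block 83, 583 and 874, with array weights 436, 5729 and 6619, and without replicate 3 of every group 43, 241 and 377. The latter 2 were 496 and 758 when only 2 groups were fitted. Without AICAR replicate 1 they were 3324 and 4741. The cause was not tested. Of the called genes 195 of 1017 were higher, but 3075 of 5729 with array weights and 389 of 1155 after quantile normalization.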
